A study of Mus musculus with 3 samples.

Results

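In RNA attached to the chromatin of mouse macrophages, 9 kinase-cascade genes were followed: Map3k7, Tab1, Tab2, Map3k8, Map2k1, Map2k3, Mapk3, Mapk8 and Mapk14. They were taken by symbol, not by any measured value, and all 9 were found among the 55536 annotated genes of the GENCODE M21 annotation on mm10. The cells were bone-marrow-derived macrophages of strain C57BL/6J, which are macrophages grown from bone marrow in culture. Every library came from cells that met lipid A (100 ng/ml), the membrane anchor of bacterial endotoxin and the ligand of the receptor TLR4, on 2 occasions. The first exposure lasted 12 h, a washout of 12 h followed, and the second exposure, at the same dose, lasted 90 min. The 3 libraries are replicates 1, 2 and 3 of this 1 condition. Untreated cells, cells stimulated once and other cell fractions were not analysed here, so no value below is a response to lipid A. The labels list 1 donor entry for all 3 libraries, state that sex and age were not collected, and do not say whether the replicates were separate cultures. The spread between libraries may therefore be partly technical, and so may any p-value taken from it.

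These genes encode a relay that carries the TLR4 signal. It has tiers: a MAP kinase kinase kinase (MAP3K) phosphorylates a MAP kinase kinase (MAP2K), which phosphorylates a MAP kinase (MAPK). Map3k7 encodes TAK1, which is activated when its adaptors TAB2 and TAB3 bind ubiquitin chains made downstream of the receptor, and TAB1 is its activating partner. Map3k8 encodes TPL2, which is held by the NF-kB precursor p105 until IkB kinase releases it. Map2k1 encodes MEK1, which acts on the ERK kinases, and Map2k3 encodes MKK3, which acts on the p38 kinases. Mapk3, Mapk8 and Mapk14 encode the kinases ERK1, JNK1 and p38alpha. The cascade works by phosphorylation, which RNA does not measure.

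Total expected counts on annotated genes came to 12502177, 21683473 and 16844974 for replicates 1, 2 and 3, and the starting RNA was 1 µg, 250 ng and 500 ng. All levels are TPM, transcript abundances corrected for length, from the deposited gene tables and are mean ± SD over the 3 libraries (n = 3) unless stated. Protein-coding genes held 34.1%, 27.4% and 29.4% of TPM in replicates 1, 2 and 3, so TPM also depends on the noncoding RNA of a library. All 10 macrophage markers reached 1 TPM in each library, led by Adgre1 with 422 ± 65.5 and Lyz2 with 147 ± 27.0. Of 18 markers of T cells, B cells, neutrophils, fibroblasts, erythroid and endothelial cells, 1 reached it, Cd4 with 1.81 ± 0.206 TPM. Their mean levels summed to 3.41 TPM, against 929 TPM for the macrophage markers, and Cd3e, Cd3d, S100a8, Ly6g and Elane were among those at 0. The libraries differed from each other by more than counting noise and were kept as separate replicates. In bulk RNA, fewer cells with a transcript and less of it per cell cannot be told apart.

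All 9 genes of the relay were found on chromatin, and 8 of them above the higher of 2 limits. In each library 1 TPM or more was found for 9 of the 9, beside 41.1% of all 22015 protein-coding genes. The limit of 10 TPM was met throughout by 8 of the 9, beside 19.1% of protein-coding genes. The exception was Tab1. The median over the 9 genes was 29.0 ± 1.74 TPM. The plot of levels by library shows the order, which ran from Tab2 through Map3k8, Map2k1, Map3k7, Mapk14, Map2k3, Mapk8 and Mapk3 to Tab1.

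**Figure D1:**
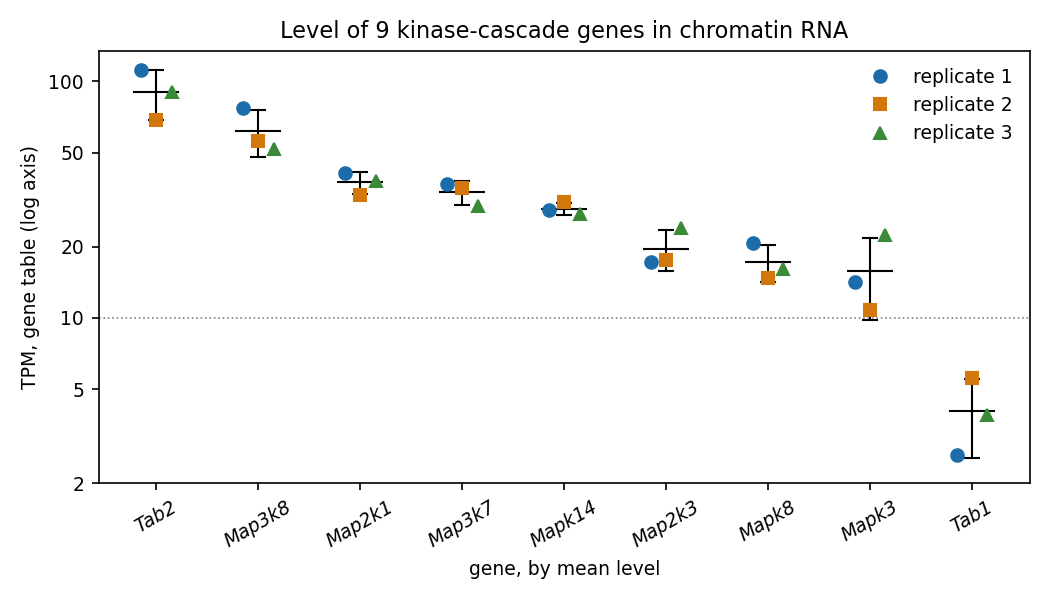
TPM in the gene table (y axis, log scale) of the 9 genes (x axis, ordered by mean). Each point is 1 library, the horizontal bar is the mean and the whiskers are the SD of 3 libraries, and the dotted line marks 10 TPM. Tab2 averaged 90.1 TPM and Tab1 4.03 TPM, and Tab1 is the gene that lies under the line in every library.

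The neighbours in this order were set against the spread of their within-library difference of log2(TPM + 1). Tab2 exceeded Map3k8 by 0.53 ± 0.25, and Map3k8 exceeded Map2k1 by 0.69 ± 0.24, in 3 of 3 libraries each. Map3k7 exceeded Mapk14 by 0.22 ± 0.13, Mapk14 exceeded Map2k3 by 0.55 ± 0.32 and Mapk3 exceeded Tab1 by 1.72 ± 0.76, again in 3 of 3 libraries. These 5 steps are larger than 1 SD of the difference. The other 3 steps are not: Map2k1 over Map3k7 at 0.13 ± 0.22, Map2k3 over Mapk8 at 0.18 ± 0.40, and Mapk8 over Mapk3 at 0.16 ± 0.54. The order within those pairs is therefore undecided at this spread.

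In the gene table, TAK1 and its adaptors stood far apart from each other. Map3k7 (ENSMUSG00000028284.13, chr4:31964097-32023467, plus strand) had 36.96, 35.41 and 29.63 TPM in replicates 1, 2 and 3, from 922, 1520 and 1241 expected counts. Its mean of 34.0 ± 3.86 TPM lay at the 91.1 percentile of protein-coding genes. The level of the kinase gene was close in the 3 libraries.

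Tab2 (ENSMUSG00000015755.16, chr10:7905653-7956230, minus strand), which encodes the ubiquitin-binding adaptor, had 111.41, 68.65 and 90.17 TPM, from 2646, 3490 and 3246 expected counts. Its mean was 90.1 ± 21.4 TPM, at the 96.8 percentile, and every one of its libraries lay above every library of Map3k7 in the gene table. In the transcript table that the authors made from the reads directly, Tab2 had 109, 62.3 and 84.5 TPM in replicates 1, 2 and 3. Map3k7 had 70.1, 61.2 and 66.0 TPM there, so the values of these genes overlap in that table. Tab1 (ENSMUSG00000022414.8, chr15:80133127-80161707, plus strand), which encodes the activating partner, had 2.63, 5.56 and 3.89 TPM from only 46, 194 and 88 expected counts. Its mean was 4.03 ± 1.47 TPM, at the 67.8 percentile. The 95% exact Poisson intervals of the Tab1 counts correspond to 1.93 to 3.51, 4.81 to 6.40 and 3.12 to 4.79 TPM. Replicates 1 and 2 of Tab1 therefore differ beyond counting error, which is the only error these intervals cover.

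Within each library Tab2 exceeded Tab1, by 4.95, 3.41 and 4.22 on the log2(TPM + 1) scale in replicates 1, 2 and 3. The mean difference was 4.19 ± 0.77, which is 18.3-fold on that scale, and it was positive in 3 of 3 libraries. The exact two-sided sign-flip permutation test gave p = 0.25, adjusted to 0.3 over the 6 pairs of genes compared. With 3 libraries 0.25 is the smallest p this exact test can give, so no pair in this text can pass a threshold and each is read by its size and its spread. Tab3, the relative of Tab2, had 4.88 ± 1.66 TPM, so that Tab2 made up 94.5% ± 3.01 of the summed TPM of these 2 genes and Tab3 5.55% ± 3.01. Tab2 was thus the main gene of the ubiquitin-binding adaptors on chromatin.

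Map3k8, the gene of TPL2, was the second highest of the 9. Map3k8 (ENSMUSG00000024235.11, chr18:4331327-4353015, minus strand) had 77.36, 55.88 and 51.76 TPM in replicates 1, 2 and 3, from 1389, 1839 and 1277 expected counts. Its mean was 61.7 ± 13.7 TPM, and it lay at the 95.7, 95.1 and 94.2 percentile of protein-coding genes in those libraries. Every library of Map3k8 lay above every library of Map3k7, the other MAP3K gene of the set.

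The difference of Map3k8 and Map3k7 was 1.05, 0.64 and 0.78 on the log2(TPM + 1) scale, with a mean of 0.82 ± 0.20, or 1.77-fold, positive in 3 of 3 libraries (exact sign-flip permutation p = 0.25, adjusted 0.3). This order depends on the table. In the transcript table that the authors made from the reads directly, Map3k8 summed to 60.4 ± 10.7 TPM and Map3k7 to 65.7 ± 4.45, and the difference was -0.13. The rank of Map3k8 over Map3k7 is therefore a statement about the gene table and not about both tables.

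By the rule of the smallest difference over the 3 libraries, the protein-coding genes nearest in level to Map3k7 were Anapc4, Smap2 and Usp8. Their largest log2(TPM + 1) differences from Map3k7 in any library were 0.064, 0.074 and 0.087, and 78 protein-coding genes kept within 0.25. The genes nearest to Map3k8 were Wdr37, Psmd8 and Ppp3cb, with 0.057, 0.083 and 0.097, and 53 kept within 0.25. With 3 libraries of 1 condition this likeness is one of level.

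Of the MAP2K genes, Map2k3 was the lower in every library. Map2k1 (ENSMUSG00000004936.8, chr9:64185770-64253631, minus strand) had 40.94, 33.14 and 38.05 TPM, from 513, 811 and 692 expected counts, with a mean of 37.4 ± 3.94 TPM at the 91.8 percentile. Map2k3 (ENSMUSG00000018932.9, chr11:60932033-60952811, plus strand) had 17.28, 17.58 and 24.04 TPM, from 197, 331 and 394 expected counts, with a mean of 19.6 ± 3.82 TPM at the 85.8 percentile. The 3 libraries of Map2k3 and the 3 of Map2k1 do not overlap.

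Map2k3 was lower than Map2k1 in 3 of 3 libraries, by log2(TPM + 1) differences of -1.20, -0.88 and -0.64. The mean was -0.91 ± 0.28, a ratio of 0.534 on that scale (exact sign-flip permutation p = 0.25, adjusted 0.3). Against their closest relatives these genes differed. Map2k3 made up 98.5% ± 1.08 of the summed TPM with Map2k6, the other p38-directed MAP2K gene, which had 0.300 ± 0.210 TPM. Map2k1 made up 48.2% ± 9.56 of its sum with Map2k2, which encodes MEK2 and had 41.3 ± 11.9 TPM. The share of Map2k1 was 59.2%, 42.8% and 42.5% in replicates 1, 2 and 3, so which MEK gene led was not the same in every library.

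Among the MAPK genes, Mapk14 was the highest and the steadiest in TPM. Mapk14 (ENSMUSG00000053436.15, chr17:28691329-28748406, plus strand) had 28.65, 30.89 and 27.46 TPM, from 497, 1123 and 809 expected counts, with a mean of 29.0 ± 1.74 TPM at the 89.8 percentile. Mapk8 (ENSMUSG00000021936.14, chr14:33377898-33447158, minus strand) had 20.69, 14.80 and 16.14 TPM, from 557, 804 and 687 expected counts, with a mean of 17.2 ± 3.09 TPM at the 84.3 percentile. All 3 libraries of Mapk14 lay above all 3 of Mapk8.

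Mapk3 (ENSMUSG00000063065.13, chr7:126759601-126765819, plus strand) had 14.12, 10.83 and 22.50 TPM, from 151, 210 and 336 expected counts, with a mean of 15.8 ± 6.02 TPM at the 83.0 percentile. Replicate 3 stood above the other libraries beyond counting error, since the 95% exact Poisson intervals were 20.2 to 25.0 TPM there, 12.0 to 16.6 in replicate 1 and 9.41 to 12.4 in replicate 2. The values of Mapk3 and Mapk8 overlap.

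Mapk14 exceeded Mapk3 by 0.97, 1.43 and 0.28 on the log2(TPM + 1) scale, with a mean of 0.89 ± 0.58 or 1.86-fold, and exceeded Mapk8 by 0.45, 1.01 and 0.73, with a mean of 0.73 ± 0.28 or 1.66-fold. Both differences were positive in 3 of 3 libraries, with exact sign-flip permutation p = 0.25 and adjusted p = 0.3 for each. Mapk8 and Mapk3 differed by 0.52, 0.42 and -0.46, with a mean of 0.16 ± 0.54, positive in 2 of 3 libraries (exact sign-flip permutation p = 0.75, adjusted 0.75). That last difference was -0.019 without replicate 1 and -0.50 in the table made from the reads, so no order of JNK1 and ERK1 genes can be given.

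Within their families Mapk14 and Mapk8 took different places. Mapk14 held 91.2% ± 1.58 of the summed TPM of the p38 genes, against 7.76% ± 1.54 for Mapk11 and 1.03% ± 0.420 for Mapk12, and Mapk13 was listed at 0. Mapk8 held 43.1% ± 2.37 of the JNK genes, against 56.7% ± 2.47 for Mapk9, and Mapk10 held 0.126% ± 0.102. So Mapk14 was the main gene of its family on chromatin, and Mapk8 was below Mapk9 in its own. In the table made from the reads the shares were 89.7% for Mapk14 and 40.8% for Mapk8, the same places in their families.

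**Figure D2:**
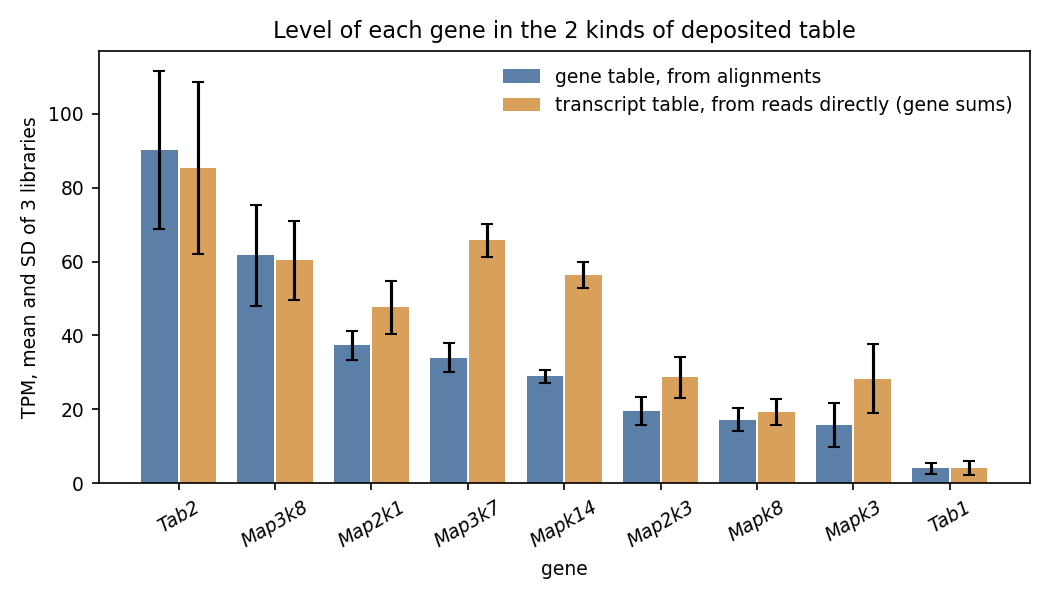
Mean TPM with SD of 3 libraries (y axis, starting at 0) of the 9 genes (x axis) in the gene table made from alignments (blue) and in the table made from the reads, summed per gene (orange). Map3k7 averaged 34.0 and 65.7 TPM in the 2 tables and Mapk14 29.0 and 56.4 TPM, while Tab2, Map3k8 and Tab1 changed little.

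The tables gave different levels for some of these genes, as the plot of both tables shows. Map3k7 had 1.93 times, Mapk14 1.94 times and Mapk3 1.79 times its gene-table level in the table made from the reads. For Mapk14 this meant 56.4 ± 3.47 TPM and for Mapk3 28.3 ± 9.42 TPM. The ratio was 1.46 for Map2k3, 1.27 for Map2k1 and 1.12 for Mapk8, while Tab1, Map3k8 and Tab2 had 1.03, 0.979 and 0.946. A ratio of at least 1.5 was found for 3 of the 9 genes, and for 35.5% of the 9039 protein-coding genes with at least 1 TPM in each library. Their median ratio was 1.28, beside 1.27 for the 9 genes. The share and the median of the 9 genes are thus near those of the other genes.

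Once length was left out, some of these genes had close values in the 3 libraries. In CPM, counts relative to library size, scaled by the TMM method of edgeR, Map2k1 had 39.2, 39.8 and 40.4 CPM in replicates 1, 2 and 3, a coefficient of variation of 1.63%. Map3k7 had 70.4, 74.6 and 72.5 CPM (2.93%), Mapk8 had 42.5, 39.5 and 40.2 CPM (3.92%) and Tab2 had 202, 171 and 190 CPM (8.22%). At the other end, Mapk3 had 11.5, 10.3 and 19.6 CPM (36.7%) and Tab1 had 3.51, 9.52 and 5.14 CPM (51.3%). Mapk14, the steadiest of the set in TPM, was not so on this scale, with 37.9, 55.1 and 47.3 CPM (18.4%). Map3k8 had 17.4% and Map2k3 23.8%.

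The median coefficient of variation of the 9 genes was 17.4%, beside 19.1% over the 9039 protein-coding genes with at least 1 TPM in each library. Without replicate 1 it was 10.8% for the 9 genes, beside 10.5% for those protein-coding genes, without replicate 2 it was 15.5% beside 17.1%, and without replicate 3 it was 7.88% beside 20.3%. Whether the 9 genes vary less than the others thus depends on the libraries used. Tab1 and Mapk3 also had the lowest counts of the set, Tab1 46 to 194 and Mapk3 151 to 336. By TPM, replicate 1 was the highest library for 5 genes, Map3k7, Tab2, Map3k8, Map2k1 and Mapk8, replicate 2 for Tab1 and Mapk14, and replicate 3 for Map2k3 and Mapk3. Replicate 1 was the highest for 38.2% of the 9039 genes, and the highest library differed from gene to gene.

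Chromatin RNA includes transcripts that are not yet spliced, and the annotation lists partly intronic transcripts of most of these genes as retained-intron transcripts. Of the 61 annotated transcripts of the 9 genes, 28 are protein-coding, 17 are retained-intron and 16 are of other kinds. The retained-intron transcripts held 72.6% ± 5.61 of Map3k8's TPM, 68.8% ± 2.42 of Mapk8's, 66.9% ± 5.51 of Map2k3's and 57.9% ± 4.47 of Map2k1's. In the transcript table from alignments these 4 genes had more than 50% of their TPM on such transcripts in every library. The shares were 40.2% ± 6.57 for Tab1, 39.3% ± 2.88 for Mapk3, 36.0% ± 3.80 for Mapk14 and 34.0% ± 4.22 for Tab2, while Map3k7 has no transcript of this kind in the annotation. The table made from the reads gave 4 genes above 50% in every library too, but Mapk3 took the place of Map2k1. There Mapk3 had 66.1%, 60.1% and 64.8% and Map2k1 36.9%, 35.1% and 36.2% in replicates 1, 2 and 3, so the shares of these genes depend on the table.

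The median share over the 8 genes was 49.5% ± 4.89, beside 48.1% ± 2.41 over the 5881 protein-coding genes that have such a transcript and at least 1 TPM in each library. By TPM the median of the 8 genes is thus within 1 SD of that of the other genes, and the genes differ among themselves. Map3k8 lay at the 85.8 percentile of those genes, Mapk8 at 81.4 and Map2k3 at 78.8, whereas Mapk14 lay at 31.7 and Tab2 at 28.9. Replicate 1 had the highest share in 8 of the 8 genes, beside 58.3% of the 5881 genes, and it was the library with the most starting RNA and the lowest total count. The part of either in these shares was not tested.

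TPM weights a short transcript more than its reads do, and most retained-intron transcripts here are short. As a share of expected counts, the retained-intron transcripts held 61.6% ± 7.27 of Map3k8 and 59.0% ± 2.89 of Mapk8, below their shares of TPM and still above 50% in each library. They held 38.3% ± 7.07 of Map2k3, 23.3% ± 4.26 of Map2k1 and between 5.58% and 8.72% of Mapk14, Tab2, Tab1 and Mapk3. The median share of counts was 16.0% ± 2.95 over the 8 genes, beside 31.7% ± 3.22 over the 5881 genes, so by counts the set lies lower than those genes. Map3k8 and Mapk8 are therefore the genes of the set in which most counts, as well as most TPM, were assigned to retained-intron transcripts.

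**Figure D3:**
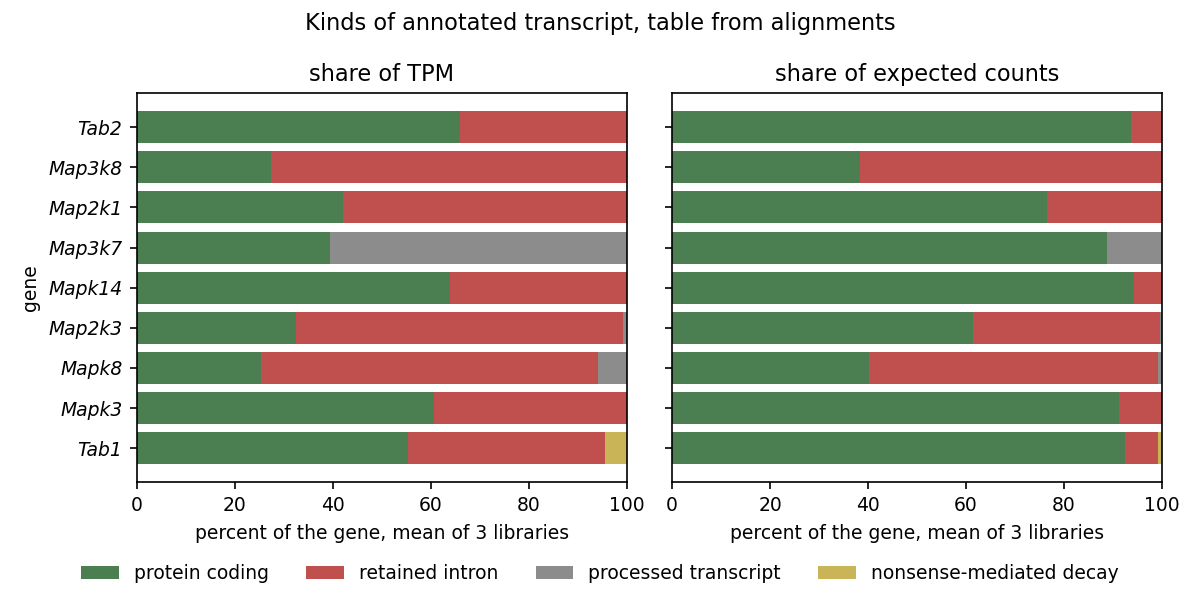
Share of each gene (x axes, percent, mean of 3 libraries) on protein-coding, retained-intron, processed and nonsense-mediated decay transcripts, by TPM on the left and by expected counts on the right, for the 9 genes (y axis). Retained-intron transcripts take 72.6% of Map3k8 by TPM and 61.6% by counts, while those of Tab2 take 34.0% by TPM and 6.27% by counts.

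Transcript by transcript, the leading form of Map3k8 was Map3k8-203, a retained-intron transcript with 44.39, 26.82 and 25.41 TPM in replicates 1, 2 and 3, from 888, 941 and 687 expected counts. The coding transcript Map3k8-201 had 16.38, 17.95 and 14.91 TPM, from 420, 813 and 520 counts. Replicate 1 was thus the highest library for the retained-intron transcript by TPM and the other libraries were close to each other, while the coding transcript was even across libraries. Map3k8-203 ends inside intron 2 of the 7 introns of Map3k8-201, of which it keeps the first 1526 of 5791 bases. Map3k8-204 had 16.60, 11.12 and 11.43 TPM and keeps the last 279 of the 4727 bases of intron 5. The map of Map3k8 exons shows that Map3k8-203 shares only the first exons of the coding transcript, so its counts describe RNA of the 5′ part of the gene.

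**Figure D4:**
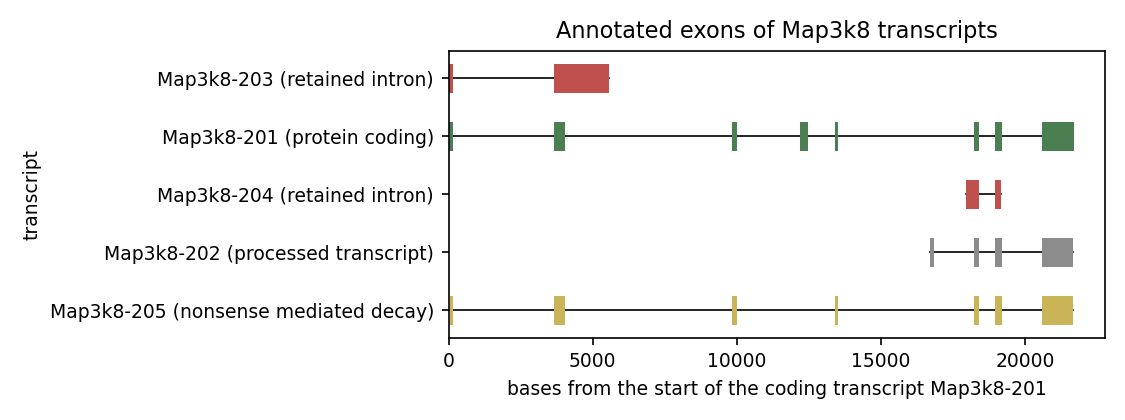
Annotated exons (boxes) and introns (lines) of the 5 Map3k8 transcripts (y axis, ordered by mean TPM) by distance in bases from the start of the coding transcript (x axis), coloured by kind. The retained-intron transcript Map3k8-203, with a mean of 32.2 TPM, covers the first exons and 1526 bases of the intron after them, and the coding transcript Map3k8-201 had a mean of 16.4 TPM.

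Measured against its coding transcript Mapk8-205, Mapk8 showed the widest intronic cover. Its leading transcript by TPM was Mapk8-211, with 5.07, 4.17 and 4.12 TPM, which keeps the whole of intron 7 (1690 bases) of the 11 introns of the coding transcript and parts of introns 6 and 8. Intron 7 of Mapk8-205 holds an exon of the other coding transcripts Mapk8-201 and Mapk8-203. Not all of that stretch is therefore intronic in every coding form. The next was Mapk8-207, another retained-intron transcript, with 4.11, 2.85 and 3.83 TPM, which keeps the first 2004 of the 2197 bases of intron 6. The coding transcript Mapk8-205 had 3.18, 2.51 and 3.11 TPM, below both by TPM in every library. By expected counts the coding Mapk8-205 had 192, 271 and 257, above Mapk8-211 with 183, 268 and 203, so which of them leads depends on the measure.

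By TPM Map2k1 was led by Map2k1-204, a retained-intron transcript with 20.31, 14.57 and 17.05 TPM that keeps the last 518 bases of intron 8, followed by the coding Map2k1-201 with 15.24, 15.25 and 16.36 TPM. Map2k3 was led by the coding Map2k3-201 with 4.89, 5.60 and 8.91 TPM, next to the retained-intron Map2k3-204 with 6.53, 5.25 and 6.63 TPM, which keeps the last 496 bases of intron 10. In both genes the order of the coding and the retained-intron form changed between libraries by TPM. By expected counts the coding form was the higher in every library, with 369, 651 and 538 for Map2k1-201 against 106, 122 and 112 for Map2k1-204, and 106, 213 and 261 for Map2k3-201 against 28, 35 and 35 for Map2k3-204. The table made from the reads also had Map2k1-201 above Map2k1-204, with 16.3 ± 0.697 and 14.2 ± 2.17 TPM, and had Map2k3-201 below Map2k3-204, with 5.88 ± 1.37 and 7.16 ± 1.15 TPM. Tab2 was led by the coding Tab2-204 with 39.31, 34.87 and 40.16 TPM, from 1782, 2819 and 2495 counts, ahead of the retained-intron Tab2-203 with 27.37, 13.46 and 17.41 TPM.

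Across the set, the 17 retained-intron transcripts keep 20 stretches of intron of 94 to 2004 bases, with a median of 356. Of these, 9 lie at the 3′ (acceptor) side of an intron, 8 at its 5′ (donor) side and 3 are whole introns. Where the stretch is whole or at the donor side, an exon runs on into the kept intron, unlike in the coding transcript. The 9 stretches at the acceptor side have no such boundary. Of the boundaries that exist, 4 are shown. Each is 30 bases of exon followed by 30 bases of intron, on the strand of the gene, 5′ to 3′, from the GENCODE M21 transcript sequences on mm10. The capitals mark the first 6 bases of the intron, the donor side of the splice site.
Tab2-202, intron 4, chr10:7911358-7911417, minus strand: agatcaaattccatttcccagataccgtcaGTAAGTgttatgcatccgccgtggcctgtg
Map2k1-202, intron 9, chr9:64187647-64187706, minus strand: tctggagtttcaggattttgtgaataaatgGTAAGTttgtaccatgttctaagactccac
Map2k3-206, intron 9, chr11:60947159-60947218, plus strand: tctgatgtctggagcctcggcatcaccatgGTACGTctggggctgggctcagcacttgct
Mapk8-211, intron 7, chr14:33390643-33390702, minus strand: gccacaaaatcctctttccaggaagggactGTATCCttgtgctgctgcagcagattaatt

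The exon bases of all 4 are coding. Boundaries of Map3k8, on chromosome 18, were left out by choice. All 10 boundaries of the other genes that could be read with 30 bases on each side have GT as the first bases of the intron. In Tab2-202 and Map2k1-202 the kept intron is whole and short, 205 and 340 bases. In Map2k3-206 the transcript ends 403 bases into an intron of 2732 bases. Tab2-202 had 11.8 ± 4.31 TPM, Map2k1-202 4.45 ± 1.05, Map2k3-206 4.45 ± 1.04 and Mapk8-211 4.45 ± 0.535.

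The remaining genes differed in how surely their transcripts could be told apart. For Map3k7, the coding transcripts Map3k7-201 and Map3k7-202, of 5773 and 5669 bases, had 7.47, 5.77 and 5.65 TPM and 5.93, 6.56 and 8.30 TPM, in the order of replicates 1, 2 and 3. Their 451, 624 and 470 and 352, 697 and 676 counts came with mean posterior SDs of 80.4 and 81.3 counts in the deposited table. Their TPM in the table from the reads were 6.79 ± 1.58 and 2.94 ± 2.30, so the split between them is uncertain. The 2 leading transcripts by TPM were the short processed transcripts Map3k7-208, with 7.51, 7.74 and 6.83 TPM, and Map3k7-205, with 6.82, 10.41 and 4.07 TPM. Coding transcripts held 39.4% ± 6.70 of Map3k7's TPM and 88.8% ± 3.07 of its counts, so most of its counts were assigned to the long coding forms. In the table made from the reads the coding transcripts held only 16.3% ± 0.969 of Map3k7's TPM and the processed transcripts 83.7% ± 0.969.

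Mapk3 was led by the coding Mapk3-203 with 7.32, 4.60 and 4.90 TPM and the retained-intron Mapk3-208 with 3.82, 1.98 and 5.89 TPM, while in the table from the reads Mapk3-208 led, with 13.3 TPM against 8.43 TPM for Mapk3-203. Its high value in replicate 3 lay partly on the coding Mapk3-202, with 0.87, 1.69 and 8.38 TPM, which had 0.085, 0 and 0.379 TPM in the table from the reads. By TPM Mapk14 was led by the retained-intron Mapk14-207 with 11.56, 10.38 and 9.33 TPM and the coding Mapk14-202 with 2.33, 7.97 and 8.25 TPM, and Mapk14-202 was at 0 in the table from the reads in every library. By expected counts the short Mapk14-207 had a mean of only 41.9, against 336 for Mapk14-202 and 230 for the coding Mapk14-203. Tab1 was led by the coding Tab1-201 with 1.40, 3.47 and 1.97 TPM and the retained-intron Tab1-203 with 1.23, 1.87 and 1.56 TPM. Levels of single transcripts of Mapk3 and Mapk14 thus depend on the table and on the measure.

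Introns of these genes hold other annotated genes, and those in Map2k1 had many counts. Gm48855, a lincRNA gene on the opposite strand at chr9:64228339-64230795, lies in intron 1 of Map2k1, which is 38603 bases long. It had 691, 667 and 608 expected counts in replicates 1, 2 and 3, against 513, 811 and 692 for Map2k1 itself. Uchl4, at chr9:64235201-64236362 in the same intron and also on the opposite strand, had 333, 285 and 237 counts. No source used here says whether the counting used strand, so RNA of Map2k1's intron and RNA of these genes cannot be told apart. The counts of both genes were highest in replicate 1, unlike those of Map2k1. Genes inside the other members had fewer counts, the highest being AC170998.1 in intron 6 of Mapk14 with 26.3 ± 3.06 and the pseudogene Gm46448 in intron 1 of Mapk8 with 19.3 ± 5.86.

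The rest of the cascade gives the setting for these levels. Of 81 other genes of the cascade in 8 roles, 63 (77.8%) had 1 TPM or more throughout, beside 41.1% of all protein-coding genes. The limit of 10 TPM was met throughout by 45 (55.6%), beside 19.1% of all protein-coding genes. The same 19.1% is the background for the counts by role below. In all libraries 13 stayed under 1 TPM. Their median was 16.5 ± 0.786 TPM, beside 29.0 ± 1.74 TPM for the 9 genes.

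Upstream of the relay, 10 of the 11 partners of TAK1 and TPL2 reached 10 TPM in each library, and this was the role with the highest median, 35.6 ± 6.41 TPM. Nfkb1, which encodes the p105 that holds TPL2, was the highest with 460 ± 126 TPM, a mean above that of each of the 9 genes. Ikbkb, the gene of the IkB kinase that acts on p105, had 174 ± 33.2 TPM. Tab3 was the lowest of the role.

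In the MAP3K tier, 7 of 16 other genes reached 10 TPM. Araf, which encodes a RAF kinase acting on MEK, had 42.5 ± 5.58 TPM, below the mean of Map3k8 and above that of Map3k7, and Map3k13 was the lowest with 0.063 ± 0.015 TPM. In the MAP2K tier, 4 of 5 reached 10 TPM, led by Map2k2 and by Map2k5, the MAP2K of ERK5, with 25.8 ± 2.78 TPM. In the MAPK tier, 4 of 10 reached it and 5 stayed under 1 TPM. Mapk6, the gene of the atypical kinase ERK3, had 48.3 ± 4.02 TPM, above each of Mapk3, Mapk8 and Mapk14 in mean level.

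The scaffolds were split, with 3 of 7 at 10 TPM or more and 3 under 1 TPM. Spag9 and Mapk8ip3, which encode the JNK-interacting proteins JIP4 and JIP3, had 180 ± 34.2 and 150 ± 7.14 TPM, and Mapk8ip2 had 0.0033 ± 0.0058. Downstream, 7 of 10 kinase genes reached 10 TPM, led by Mapkapk2, which encodes the p38 substrate MK2, with 86.1 ± 24.1 TPM and Mknk1 with 78.0 ± 18.2, and the lowest was Mknk2 with 3.19 ± 0.764. Mapkapk2 had 231 ± 89.6 TPM in the table made from the reads.

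Of the nuclear targets, 7 of 12 transcription factor genes reached 10 TPM, led by Mef2a with 120 ± 54.9 TPM and Creb1 with 64.7 ± 16.1, and Srf was the lowest with 4.26 ± 1.40. Of the phosphatase genes, which encode enzymes that switch MAP kinases off, 3 of 10 reached it. They were led by Dusp2 with 67.7 ± 14.3 TPM and Dusp1 with 48.9 ± 16.3, and Dusp9 was listed at 0. The genes under 1 TPM in all libraries were Map3k9, Map3k13, Map2k6, Mapk4, Mapk10, Mapk12, Mapk13, Mapk15, Mapk8ip1, Mapk8ip2, Ksr2, Dusp9 and Dusp10. That list holds for the gene table. In the table made from the reads, Mapk12 had 2.86 ± 0.287 TPM and Ksr2 1.46 ± 0.722, while the means of the other listed genes were under 1 TPM. The plot of the cascade by role shows where the 9 genes stand among their neighbours.

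**Figure D5:**
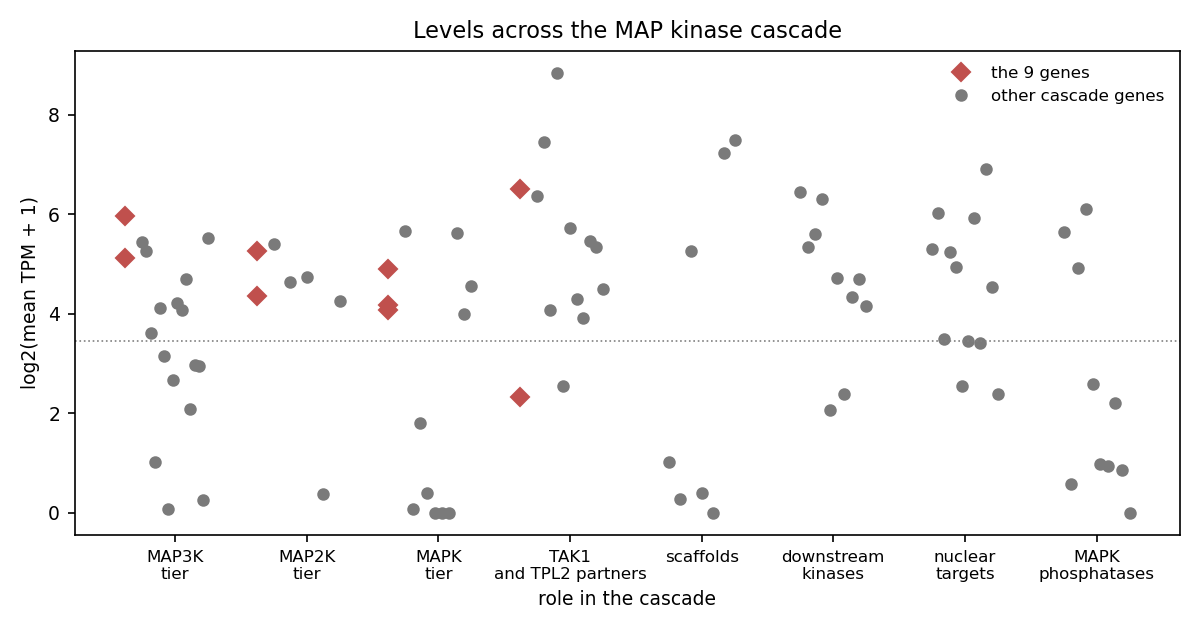
Level of each gene as log2(mean TPM + 1) over 3 libraries (y axis) by role in the cascade (x axis). Diamonds are the 9 genes, dots are the 81 other cascade genes, spread sideways for legibility, and the dotted line marks 10 TPM. Tab2 and Map3k8 lie high in their roles, and Tab1, at 4.03 TPM, lies low among the partners of TAK1.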

How the data were processed

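Total RNA of the chromatin fraction was depleted of ribosomal RNA and sequenced in 3 libraries of 1 condition, per the labels. The authors deposited tables per gene and per transcript from alignments, and another per transcript from the reads themselves, all on mm10 with GENCODE M21, per the file headers and the submitters' processing notes. The aligner and quantifier were not given in the sources used here. Expected counts, as deposited, are estimates and can be fractional. TPM, as deposited, sum over every feature of a library, noncoding ones included. The deposited effective lengths and posterior SDs were used as given. Rows that are no annotated gene numbered 26345, held 1.34%, 0.292% and 0.416% of counts in replicates 1, 2 and 3, and were left out of library sizes. The limit behind a count of 0 is 3 counts, or 0.240, 0.138 and 0.178 CPM in replicates 1, 2 and 3. Intervals and floors cover counting error only.

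Pairs of genes were compared within libraries as differences of log2(TPM + 1), which understate folds of low genes, with a two-sided exact permutation test (sign flips within libraries) and Benjamini-Hochberg adjustment over 6 pairs. Expected counts were rounded for TMM factors (edgeR 4.0.16) and size factors (DESeq2 1.42.0) under R 4.3.3. Python 3.11.15 ran the remaining steps with numpy 2.4.6, pandas 2.3.3, SciPy 1.17.1 and matplotlib 3.10.9. The sign-flip test was checked on set values, and the TMM and size factors on simulated counts. The other steps were not checked in this way. Percentiles are among 22015 protein-coding genes, mitochondrially encoded genes apart. Kept intron stretches were read from the annotation against each gene's leading coding transcript. The share of a family is of the summed TPM of its listed genes. Named genes were the 9 members, the 2 highest and the lowest of each role, genes under 1 TPM by name, the 3 nearest in level to Map3k7 and Map3k8, and the 2 leading transcripts of each member. Family relatives, genes inside members, the detected markers and further transcripts of the members were named beyond that rule, with values seen. A few genes under this rule are left unreported. The members and lists were chosen with earlier results of these data known. Alternatives covered the pseudocount (0.1), the table, the scaling, length correction, TPM limits and leaving out each library.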

Additional observations from a re-analysis of the deposited data

How the results depend on the processing

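Of 63 alternative values, 59 kept their direction or, for counts and values without a test, stayed within 1.5 times or 1 SD. No pair can pass a threshold in any of them, since 0.25 is the smallest p of the exact test with 3 libraries. Where a pair had the same sign in every library, 3 kinds of alternative could not reverse it. These are the pseudocount of 0.1, TPM rescaled to protein-coding genes and leaving out a library. For such pairs they add nothing on stability of direction. The table made from the reads and the values without length correction could reverse a pair. For the median coefficient of variation of the members, 17.4%, the SD used was the scatter over the member genes, 16.9%. A limit that wide could hardly be failed, so its alternatives in the tally say little about stability. They include 7.88% without replicate 3, and 10.8% without replicate 1, where the protein-coding genes had 10.5% and so the order was reversed. Map3k8 minus Map3k7 reversed to -0.13 in the transcript table made from the reads directly, and Mapk8 minus Mapk3 reversed to -0.50 there. The cause was not tested. With each library left out in turn, Mapk8 minus Mapk3 ranged from -0.019 to 0.47, with the reversed value without replicate 1. The median retained-intron share was 16.0% as a share of expected counts, an alternative chosen after seeing the data, against 49.5% as a share of TPM. By construction, counts give short transcripts less weight than TPM does. Without length correction, as TMM-scaled CPM, Map3k8 minus Map3k7 was 0.30 ± 0.27, Mapk14 minus Mapk8 0.18 ± 0.32 and Mapk8 minus Mapk3 1.54 ± 0.48. On this scale Mapk14 was below Mapk8 in replicate 1, with 37.9 against 42.5 CPM, so their order did not hold in every library. The count of other cascade genes was 45 at 10 TPM, 52 at 5 TPM and 63 at 1 TPM. Tab1 had the fewest counts, and depth limits it most. No paired analysis was possible because the libraries have no other group to be paired with by replicate number, and the pairs of genes above are differences within a library.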
